A study of Mus musculus with 50 samples.

Results

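The genes described here are the 6 named Duox1, Duoxa1, Pvalb, Lypd1, Klk1 and Creb3l4, out of 12819 genes measured in mouse embryonic stem cells losing the kinase Cdk12. They were chosen by their fold changes after doxycycline (Dox) withdrawal, from a list of steep fallers by name, so those changes are given as a description without a test. The cells were of the V6.5 line (strain label C57Bl/6-129), with the genotype Cdk12 -/-:Cdk12 Tg+, in which the endogenous gene is knocked out and a Dox-inducible transgene encoding Cdk12 with Flag and HA tags takes over. Clones 28 and 36 were kept with Dox at 1 µg/mL (0 h) or left without it for 24 or 48 h, each in duplicate, giving 4 libraries of polyA-selected RNA per time and 12 in all. Every knockout group thus shared the deletion and the transgene, and only 2 clones stand for the genotype. A further 6 libraries came from parental cells of clone 21, Cdk12 Fl/Fl; Cdk12 Tg-, given Dox for 17 days and harvested at the same times, 2 per time, as the control for Dox withdrawal itself. The 32 chromatin libraries of clone 36 are not analysed here.

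Cdk12 works with cyclin K and phosphorylates the tail of RNA polymerase II's largest subunit, and it is known for sustaining elongation through long genes and for holding back polyadenylation inside introns. Duox1 is a membrane oxidase that makes hydrogen peroxide, and Duoxa1 is the endoplasmic reticulum partner that lets it mature. The pair is best known from thyroid and airway epithelium. Pvalb encodes parvalbumin, a calcium buffer of fast muscle and of a class of inhibitory neurons. Lypd1 encodes a membrane-anchored protein of the Ly6/uPAR family that acts on nicotinic acetylcholine receptors. Klk1 is tissue kallikrein, the protease that frees kinins from kininogen. Creb3l4 is a transcription factor of the CREB3 family, held in the endoplasmic reticulum membrane until it is cleaved.

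The values come from 2 comparisons the authors made in the knockout clones, 24 h against 0 h and 48 h against 0 h. Per the file headers these are a log2 fold change, a posterior probability of differential expression, an adjusted p and a yes or no mark for a Dox effect. Neither the test behind the adjusted p nor the libraries it compared are stated. No value per library is in the table, so no level, SD or depth stands beside a gene, and fewer transcripts per cell cannot be told apart from fewer cells that hold them. A gene was called where its posterior probability was at least 0.95. Each change is given relative to 0 h, so that negative values are falls. This reading rests on the column names and on the sign of Cdk12, whose row in the authors' deposited table then stands at -0.61 at both times, with posterior probabilities of 0.0704 and 0.266. Were it wrong, all directions would turn round. The 8 pluripotency markers, among them Pou5f1 and Nanog, all had a row in the authors' deposited table, with no call at either time and changes between -0.18 and 0.27 at 24 h and between -0.46 and 0.39 at 48 h. Of 8 fibroblast markers 4 had a row in the authors' deposited table, and Col1a1 alone was called, at 0.89 at 48 h. It carries the Dox mark at that time, with an adjusted p of 0.0517. All 8 primitive endoderm markers had a row in the authors' deposited table, with medians of 0.35 at 24 h and 0.66 at 48 h. Their called members, Sox7 at 24 h and Gata4 and Gata6 at 48 h, stood at 0.55, 0.85 and 0.79 by the authors' deposited table. These are 1 and 2 of 8, against 0.45% and 3.72% of all genes called as risen. The adjusted p called 0 of the 8 as risen at 24 h and 1 at 48 h, Gata4 at 0.0278, while Gata6 had 0.102. Sox7 stood at 0.28 at 48 h, with a posterior probability of 3.27e-22. The part of such cells in the falls was not tested.

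Duoxa1 and Duox1 are neighbours on chromosome 2 that are transcribed away from each other, and they moved together. Their RefSeq promoter windows (build GRCm38.p6, 250 bases before to 50 after the start) are shown because both genes had almost the same change. The windows lie at chr2:122313681-122313980 on the minus strand for Duoxa1 and at chr2:122315422-122315721 on the plus strand for Duox1, with 1942 bases between the 2 starts. Capitals mark each GC box, GGGCGG, on either strand.
Duoxa1: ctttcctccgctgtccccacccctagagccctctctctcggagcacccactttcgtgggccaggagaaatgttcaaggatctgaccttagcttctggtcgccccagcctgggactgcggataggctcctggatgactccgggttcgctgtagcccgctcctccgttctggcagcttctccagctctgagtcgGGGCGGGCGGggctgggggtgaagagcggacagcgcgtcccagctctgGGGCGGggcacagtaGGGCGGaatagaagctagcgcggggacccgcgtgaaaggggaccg
Duox1: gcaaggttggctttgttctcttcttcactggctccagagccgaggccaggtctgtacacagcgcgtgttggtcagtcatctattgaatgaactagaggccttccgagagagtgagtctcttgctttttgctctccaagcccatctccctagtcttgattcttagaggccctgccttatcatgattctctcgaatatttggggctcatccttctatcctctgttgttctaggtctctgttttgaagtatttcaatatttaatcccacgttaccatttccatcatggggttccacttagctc
The Duoxa1 window held 4 GC box matches, the first 2 of them overlapping, and 22 CpG dinucleotides. That of Duox1 held 0 GC box matches and 6 CpG, against a median of 7 CpG over all 32851 windows of 300 bases. A GC box occurred in 35.7% of all windows. So the promoter windows of this co-falling pair differed in both features.

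At 24 h Duoxa1 had the largest fall of any gene in the authors' deposited table, 4.84 on the log2 scale, which leaves 3.49% of its 0 h level. Duox1 ranked 3 in the authors' deposited table with a fall of 4.53, to 4.34% of its 0 h level. By these changes, transcripts of the oxidase and of its maturation factor were both below 5% of their 0 h levels by 24 h. No protein was measured. At 48 h the authors' deposited table puts Duox1 at 3.65% of its 0 h level, a log2 change of -4.78. Duoxa1 stood at 4.73% in the authors' deposited table, a log2 change of -4.40. Between 24 and 48 h Duox1 thus moved by -0.25 and Duoxa1 by 0.44 on the log2 scale, so that nearly all of the change was present at the earlier time. Posterior probabilities of Duox1 in the authors' deposited table lay within 4.46e-06 of 1 at 24 h and 3.15e-07 at 48 h. Those of Duoxa1 lay within 4.12e-05 and 2.77e-05 of 1 in the authors' deposited table. The adjusted p of Duox1 there was 0.000447 at 24 h and 2.96e-05 at 48 h, and that of Duoxa1 0.000687 and 0.000394, in the authors' deposited table. The starts of the windows shown above lie apart, but the full RefSeq spans of Duoxa1 and Duox1, taken over all transcripts of each gene, overlap, and whether reads were counted by strand was not given in the sources used here, so reads from the overlap cannot be assigned to either gene with certainty.

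The gene on the other side of Duox1, Shf, which encodes an SH2-domain adaptor protein, was also low. It stood at -2.03 at 24 h and -2.35 at 48 h by the authors' deposited table, ranks 16 and 15 among all falls. Its posterior probabilities of 0.516 and 0.938 in the authors' deposited table stayed under 0.95, while its adjusted p was 0.563 and then 0.0323. Sord, the sorbitol dehydrogenase gene next to Duoxa1 among measured genes, stood at -0.16 and 0.59, uncalled, in the authors' deposited table. Gatm, the next measured gene beyond Shf, stood at -0.71 and -0.40, uncalled, in the authors' deposited table. Patl2, farther out beyond Sord, stood at -0.97 and -0.71, likewise uncalled, in the authors' deposited table. No gene within 5 measured places of the pair was called at either time, Shf included. Among 12674 pairs of neighbouring measured genes, 3 had both members lower by at least 2 on the log2 scale at 24 h in the authors' deposited table. They were Duoxa1 with Duox1, Duox1 with Shf, and Th with Ascl2. At 48 h 2 of 12570 pairs did so in the authors' deposited table, and both were in the Duoxa1, Duox1 and Shf run. This count was made after these values had been seen, and Duoxa1 and Duox1 were listed for their falls. It is therefore a description only. With a minimum of 1 in place of 2 the pairs numbered 6 and 22.

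Pvalb had the second largest fall at 24 h and the largest at 48 h. The calcium buffer gene fell by 4.75 on the log2 scale at 24 h in the authors' deposited table, to 3.72% of its 0 h level, with a posterior probability within 2.86e-08 of 1 and an adjusted p of 3.13e-06. At 48 h the authors' deposited table gives a log2 change of -12.27 with an adjusted p of 1.85e-10 and no posterior probability. The step between the 2 times, -7.52 on the log2 scale, was the largest drop of any gene with both changes in the authors' deposited table. The size of this later change cannot be read as a level, because the table holds no counts. Changes beyond 10 on the log2 scale in either direction occurred in 2 genes at 48 h in the authors' deposited table, Pvalb and the predicted gene Gm14430. Posterior probabilities were missing beside a change for 358 genes at 48 h in the authors' deposited table, and Pvalb was the only one of these falls that the adjusted p called. Ift27 and Tst, an intraflagellar transport gene and a sulfur transferase gene on either side of Pvalb, stood at 0.02 and 0.12 at 24 h and 0.35 and 0.32 at 48 h by the authors' deposited table. Tst was not called, and Ift27, which lacks a posterior probability at 48 h, had adjusted p of 1 and 0.664 in the authors' deposited table.

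Lypd1 fell by less than the oxidase pair at 24 h and by nearly as much at 48 h. The authors' 2 statistics differed on it. The authors' deposited table gives log2 changes of -3.71 at 24 h and -4.28 at 48 h, ranks 5 and 5, which leave 7.64% and 5.14% of the 0 h level. Its posterior probabilities of 0.986 and 0.999 pass 0.95, while its adjusted p was 0.828 at 24 h and 0.139 at 48 h by the authors' deposited table. No gene with an adjusted p above 0.05 had a larger fall at either time in the authors' deposited table. Of 16 genes lower by at least 2 on the log2 scale at 24 h, 7 had an adjusted p above 0.5 in the authors' deposited table, and at 48 h this was so for 2 of 31. Gpr39 and Nckap5, the measured genes on either side of Lypd1, stood at 0.05 and 0.47 at 24 h, uncalled, by the authors' deposited table, and Nckap5 stood at -0.24 at 48 h, where Gpr39 had no value.

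**Figure D1:**
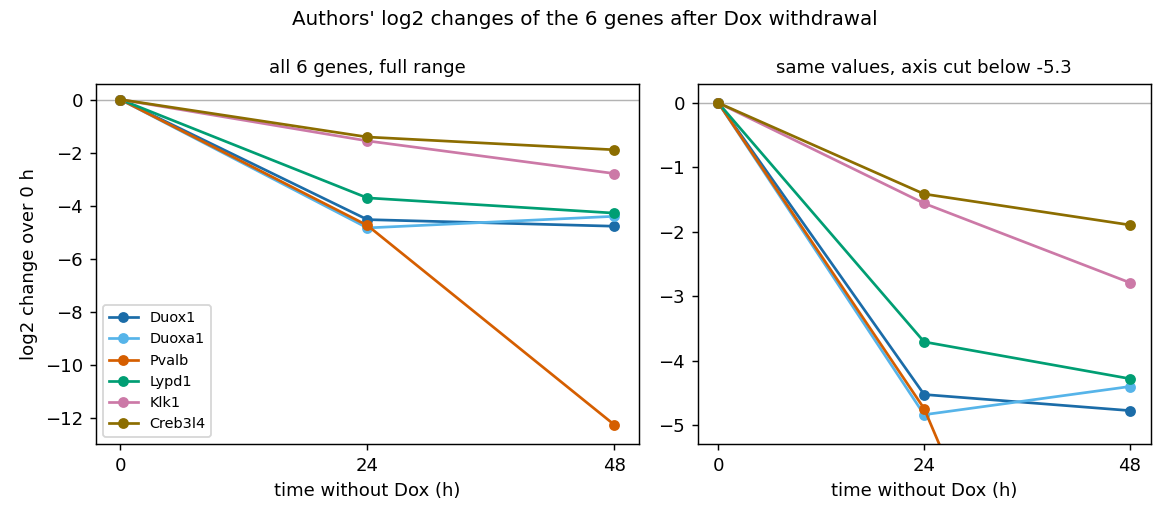
Lines join the authors' log2 changes over 0 h (vertical axis) of the 6 genes at 0, 24 and 48 h without Dox (horizontal axis), over the full range on the left and with the axis cut on the right; points have no error bars because the table holds no libraries. Duox1, Duoxa1 and Lypd1 move by less than 1 after 24 h, Pvalb goes on to -12.27, and Klk1 and Creb3l4 lie between -1.41 and -2.79 at the later times.

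Klk1 fell at 24 h and again by 48 h. The kallikrein gene, by the authors' deposited table, fell by 1.56 on the log2 scale at 24 h, rank 28, to 33.9% of its 0 h level. By 48 h it had fallen by 2.79 in the authors' deposited table, rank 10, to 14.5%. Its level dropped 2.35-fold between the 2 times by the authors' deposited table, and 21 genes dropped further. Both statistics in the authors' deposited table called it at both times, with a posterior probability within 0.000131 of 1 at 24 h and an adjusted p of 0.0104, and with an adjusted p of 7.62e-09 at 48 h. Klk1 sits among many closely similar kallikrein genes, and how reads shared between them were assigned was not given in the sources used here. Its nearest measured relative on the chromosome, Klk1b22, stood at -0.11 and 0.13 by the authors' deposited table. The other measured neighbour, 2410002F23Rik, stood at -0.26 and -0.49 by the authors' deposited table, the latter with no posterior probability and an adjusted p of 0.368. Klk1b22 was not called.

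Creb3l4 was called by the adjusted p at 48 h and by the posterior probability at neither time. Its change was -1.41 at 24 h, rank 34, and -1.89 at 48 h, rank 39, in the authors' deposited table, which is 37.5% and 26.9% of the 0 h level. The posterior probability in the authors' deposited table was 4.36e-24 and 3.04e-18, close to 0, so Creb3l4 was not called by it at either time. The adjusted p in the authors' deposited table was 0.563 at 24 h and 0.0232 at 48 h, which passes 0.05 at the later time. Posterior probabilities under 1e-06 occurred in 379 genes at 24 h and 426 at 48 h by the authors' deposited table. The median size of the change in these genes, 0.23 and 0.32 as log2 values from the authors' deposited table, stood above the 0.16 and 0.22 of genes with higher posterior probabilities. At 48 h 10 of the 426 passed the adjusted p, of which 6 were falls, and Creb3l4 had the largest fall of all 426 in the authors' deposited table. Rab26, a small GTPase gene, stood next to it at -1.89, with a posterior probability of 2.2e-18 and an adjusted p of 0.0294 in the authors' deposited table. At 24 h 1 gene of this kind, Mfap4, had a larger fall than Creb3l4. The genes on either side of Creb3l4, Jtb and the zinc transporter gene Slc39a1, stood at -0.25 and 0.07 at 24 h and at -0.40 and 0.07 at 48 h by the authors' deposited table, uncalled.

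At a posterior probability of at least 0.95, 5 of the 6 genes were called as fallen at 24 h in the authors' deposited table, against 0.679% of all genes with a posterior probability. At 48 h 4 were so called, against 3.97%. By the adjusted p at 0.05 the counts in the authors' deposited table were 4 at 24 h against 0.151% of all genes, and 5 at 48 h against 1.99%. Because the 6 were listed for their falls, nothing is read from these shares. The genes called differ by statistic. Duox1, Duoxa1 and Klk1 were called by both at both times, Pvalb by both at 24 h, Lypd1 only by the posterior probability, and Creb3l4 only by the adjusted p at 48 h. None of the 6 carries the authors' Dox mark, which 3 genes carry at 24 h and 149 at 48 h. How this mark was set was not given in the sources used here, so nothing is read from its absence. Over all genes that fell, 19 were called by both statistics at 24 h in the authors' deposited table, 64 by the posterior probability alone and 0 by the adjusted p alone, among genes with both. The same counts at 48 h were 224, 256 and 24.

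**Figure D2:**
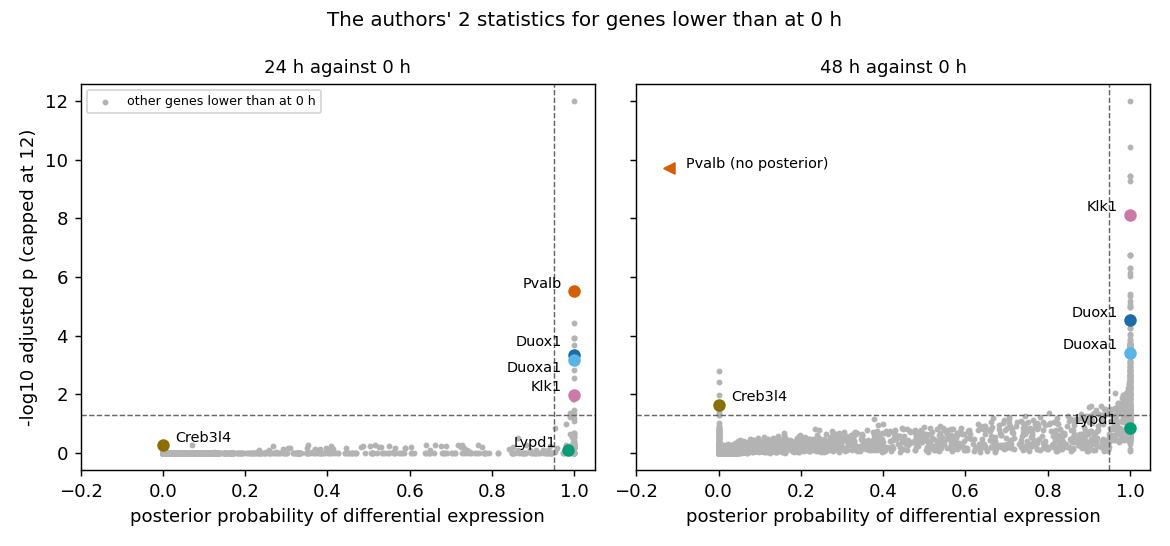
Each point is a gene lower than at 0 h, with the posterior probability on the horizontal axis and -log10 of the adjusted p, capped at 12, on the vertical axis, at 24 h (left) and 48 h (right); dashed lines mark 0.95 and 0.05. Lypd1 lies right of the posterior line and below the p line at both times, Creb3l4 lies at a posterior probability near 0, and Pvalb, with no posterior probability at 48 h, is drawn as a triangle left of 0.

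The 6 genes were not simply the 6 steepest. Among the 5 largest falls at 24 h by the authors' deposited table were 4 of them, and Rapgef4, a cAMP-activated exchange factor gene, was the other, with a log2 change of -4.02. In all 28 other genes were lower than Creb3l4 at 24 h and 33 at 48 h by the authors' deposited table. Of these 15 and 8 were not called by the posterior probability. Plau, the gene of urokinase, was an uncalled one of them, at -2.16 at 24 h and a posterior probability of 0.0981 in the authors' deposited table. Slc44a3, a choline transporter-like gene, fell by 2.68 at 24 h and by 2.90 at 48 h on the log2 scale of the authors' deposited table, both past 0.95. At the later time Rapgef4 stood at -5.28, Tfap2a at -3.17 and Col6a5 at -3.04 by the authors' deposited table.

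**Figure D3:**
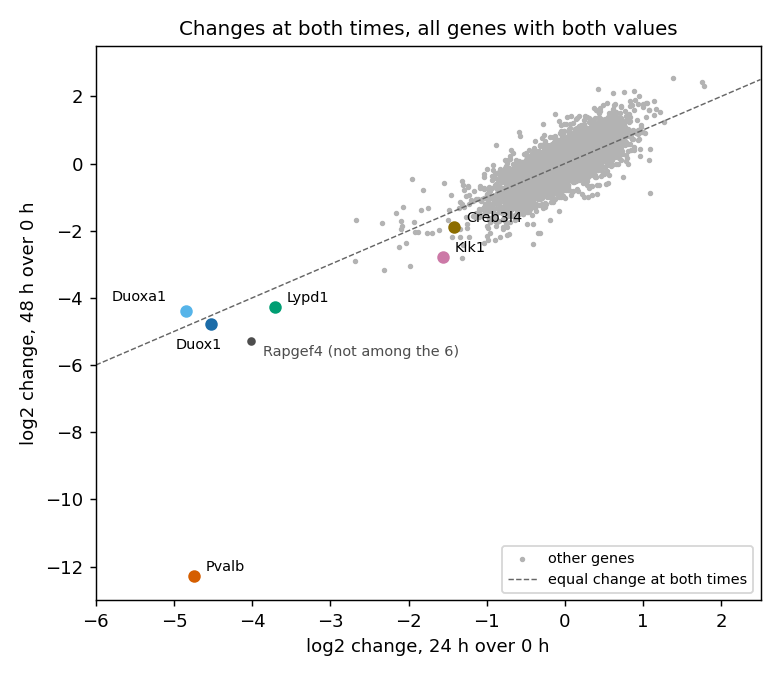
The log2 change at 24 h over 0 h (horizontal axis) is plotted against that at 48 h over 0 h (vertical axis) for genes with both values, with the 6 genes in colour and equal changes on the dashed line; Gm14430 lies outside the axes. Duoxa1 lies just above the line and the other 5 genes below it, Pvalb farthest.

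How much of the fall was present at 24 h set the members apart from each other. The log2 change at 24 h made up 110% of that at 48 h for Duoxa1 (109.9% before rounding), 94.8% for Duox1 and 86.6% for Lypd1, as computed from the authors' deposited table. It made up 74.6% for Creb3l4, 55.9% for Klk1 and 38.7% for Pvalb, again from the authors' deposited table. The share of Pvalb and its step rest on a 48 h change that has no posterior probability and cannot be read as a level. At 24 h Pvalb already stood at 3.72% of its 0 h level. The other 489 genes called as fallen at 48 h had a median of 47.4%, with quartiles of 35.5% and 61.8%, and 51 of them reached 75% or more. Since the 6 were chosen on these changes and the 489 on their call at 48 h, the contrast is a description only. Of the 6 genes 5 were lower at 48 h than at 24 h, and of the 5 with a posterior probability at both times 4 were. The step from 24 to 48 h was -0.57 for Lypd1, -0.48 for Creb3l4 and -1.23 for Klk1 on the log2 scale. Among the other 12760 genes with both changes in the authors' deposited table its median was -0.01, and the central 95% ran from -0.59 to 0.61. Duox1, Duoxa1, Lypd1 and Creb3l4 thus had steps inside that range, and Klk1 and Pvalb had steps below it. Both times share the 0 h libraries, and a test of 48 h against 24 h would need values per library.

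Likeness over the 2 changes was measured as Euclidean distance on the log2 scale, and since the 6 genes were chosen on these changes it is a description only. Duox1 and Duoxa1 were nearest to one another, 0.49 apart, and next for Duox1 was Rapgef4, at 0.72. Lypd1 had Duox1 nearest, at 0.96, then Rapgef4 at 1.04. Pvalb had no close gene, with Rapgef4 nearest at 7.02. Klk1 was nearest to Col6a5, a collagen gene, at 0.49, and to Aoah, the gene of an acyloxyacyl hydrolase, at 0.61. Creb3l4 was nearest to Vwf, the von Willebrand factor gene, at 0.09, and to Lrtm2 at 0.16. Vwf stood at -1.34 and -1.94 by the authors' deposited table, changes close to those of Creb3l4, yet with posterior probabilities that pass 0.95 at both times. Only 2 values per gene enter this measure.

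Among relatives and partners of the 6 genes, none was called at 24 h. The 10 lists of related genes held 160 genes, of which 84 had a row in the authors' deposited table. Of these 82 had a posterior probability at 24 h, and 0 passed it, against 0.679% fallen and 0.45% risen over all genes. The adjusted p likewise called 0 of them at 24 h in the authors' deposited table, against 0.151% fallen and 0.0159% risen over all genes. At 48 h 4 of 82 were called as fallen, 4.88%, and 5 as risen, 6.1%, in the authors' deposited table, against 3.97% and 3.72% over all genes. By the adjusted p 0 had fallen and 4 had risen at 48 h in the authors' deposited table, against 1.99% and 1.72% over all genes. The posterior shares lie near the background. The median log2 change at 24 and 48 h from the authors' deposited table was -0.29 and -0.09 for the oxidase list, -0.85 and -0.80 for the thyroid list, -0.23 and -0.16 for the Ly6/uPAR list, and 0.11 and 0.21 for the nicotinic receptor list. From the authors' deposited table it was -0.10 and 0.03 for the kallikrein list, -0.01 and -0.14 for the CREB3 list, and -0.11 and -0.10 for the endoplasmic reticulum stress list. Over all genes it was 0.01 at both times.

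For the oxidase pair, 4 of 14 other NADPH oxidase and partner genes had a row in the authors' deposited table. Cyba, a membrane subunit of the phagocyte oxidase, and Rac1, a small GTPase, stood at -0.14 and -0.04 at 48 h by the authors' deposited table, uncalled. Duox2 and Duoxa2, the sister pair beside Duoxa1 on the chromosome, are not analysed here. Of the 8 thyroid hormone genes 2 had a row in the authors' deposited table. Pax8, a thyroid transcription factor, stood at -1.06 and -1.36 and Slc5a5, the iodide carrier, at -0.64 and -0.24 in the authors' deposited table, all uncalled. The posterior probability of Pax8 was 0.925 at 24 h and 5.45e-19 at 48 h by the authors' deposited table, beside an adjusted p of 0.824 and 0.0526. All 16 peroxide-removing genes had a row in the authors' deposited table, with medians of -0.09 at both times. At 48 h Gpx3, a secreted glutathione peroxidase, rose by 1.32 and Prdx2, a peroxiredoxin, fell by 0.57 in the authors' deposited table. The rise of Gpx3 passed the adjusted p, at 3.46e-05, and the fall of Prdx2 did not, at 0.192, in the authors' deposited table.

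Of 21 other EF-hand calcium-binding genes, the kind to which Pvalb belongs, 16 had a row in the authors' deposited table, with medians of 0.08 and 0.24. The 1 called member was Hpcal1, a neuronal calcium sensor gene, which rose to 233% of its 0 h level at 48 h (adjusted p 0.000196) and carries the Dox mark in the authors' deposited table. Sri and Calm2 stood at -0.65 and 0.41 at 48 h by the authors' deposited table, uncalled. Of 26 other Ly6/uPAR genes 6 had a row in the authors' deposited table, between -0.83 and 0.09 at 24 h and between -0.76 and 0.45 at 48 h, all uncalled. Plaur, the urokinase receptor gene, stood lowest of these at 48 h. Among 7 measured nicotinic receptor subunit genes Chrnb4 rose by 1.30 and Chrnb1 fell by 0.77 at 48 h in the authors' deposited table, Chrnb4 with the Dox mark and an adjusted p of 0.00156 and Chrnb1 with an adjusted p of 0.194. Like Creb3l4, Chrnb1 had a near-zero posterior probability at 24 h, 7.12e-20, at a change of -0.78 in the authors' deposited table.

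Of 31 other kallikrein and kinin genes 6 had a row in the authors' deposited table, all uncalled. Klk10 stood lowest, at -0.82 at 48 h with a posterior probability of 0.580 in the authors' deposited table, and Ace, the kinin-degrading peptidase, at 0.34. In the CREB3 group 7 of 8 genes had a row in the authors' deposited table. Creb3l1, a close relative of Creb3l4, rose by 0.76 at 48 h in the authors' deposited table (adjusted p 0.0579), the reverse of the direction of Creb3l4. Creb3 and the processing protease gene Mbtps2 stood at -0.49 and -0.68 by the authors' deposited table, uncalled. Of 13 endoplasmic reticulum stress genes Ern1, the stress sensor that splices Xbp1 transcripts, rose by 0.81, and Xbp1 fell by 0.57 at 48 h by the authors' deposited table. Of these Ern1 passed the adjusted p, at 0.0444, and Xbp1 did not, at 0.247, in the authors' deposited table. None of the 7 CREB family genes was called, with medians of 0.10 and 0.01 in the authors' deposited table.

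Within 5 measured genes on either side of the 6, no other gene was called at 24 h in the authors' deposited table. At 48 h 0 of 10 neighbours of Duoxa1 and Duox1 were called as fallen and 0 as risen. Around Pvalb, Lypd1, Klk1 and Creb3l4 5 of 37 neighbours with a posterior probability were called as fallen at 48 h in the authors' deposited table. This share, 13.5% against 3.97% of all genes, leaves out the neighbours of the Duoxa1 and Duox1 pair. Called as risen was 1 of the 37, 2.7% against 3.72%. These differences were not tested. Those called as fallen were Cyth4 near Pvalb, Zranb3 near Lypd1, Shank1 and Syt3 near Klk1, and Dennd4b near Creb3l4. They fell in the authors' deposited table by 1.29, 1.49, 0.93, 0.82 and 0.69, and Slc27a3 near Creb3l4 rose by 0.76. Shank1 and Dennd4b carry the Dox mark. Of these 6 the adjusted p called Zranb3 alone, at 0.0333 in the authors' deposited table. None of them was the nearest measured gene to a member.

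**Figure D4:**
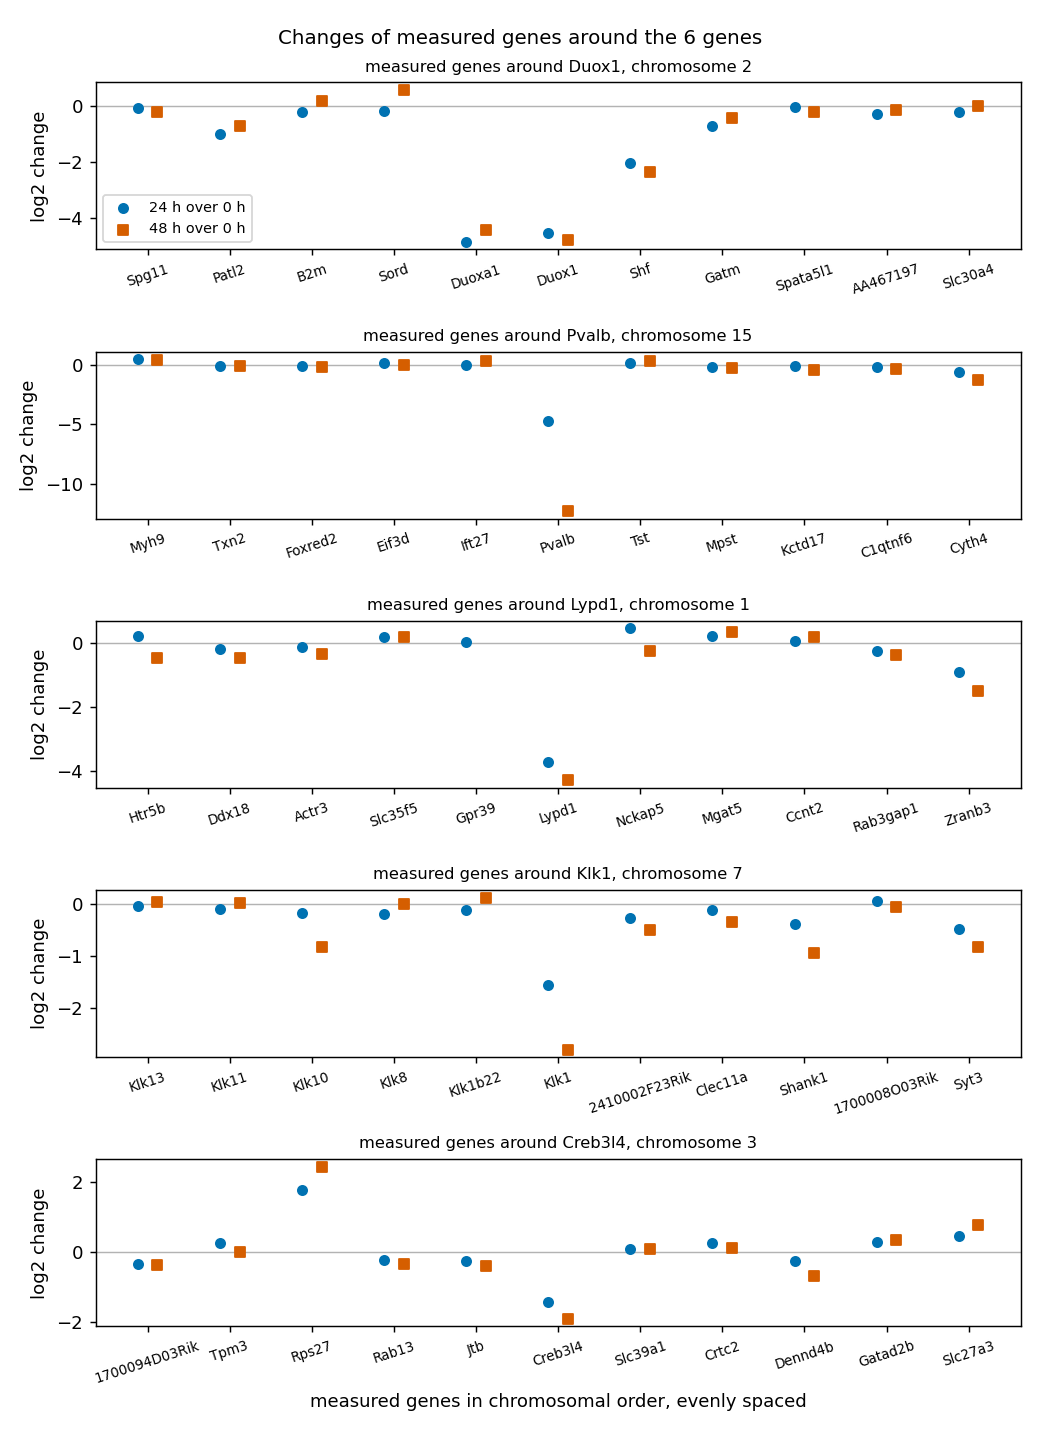
Each panel shows the authors' log2 changes (vertical axis) of up to 5 measured genes on either side of a member, evenly spaced in chromosomal order, with circles for 24 h and squares for 48 h over 0 h. In the uppermost panel Duoxa1, Duox1 and Shf lie low together, and Pvalb, Lypd1, Klk1 and Creb3l4 each lie lower than every neighbour plotted with them.

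All 6 genes matched the RefSeq promoter table, with 11 windows in all. No window held a TATA box (TATAAA), an octamer (ATTTGCAT) or a cAMP response element (TGACGTCA) on either strand, motifs found in 13.6%, 1.74% and 1.79% of all 32851 windows. A GC box (GGGCGG) was found in 5 of the 11, those of Duoxa1, Lypd1 and Creb3l4, and a CCAAT box (CCAAT) in 5, those of Lypd1, Klk1 and Creb3l4, against 35.7% and 37.4% of all windows. An E box (CACGTG) occurred in 1 window of Lypd1, against 7.15% of all. Lypd1, Creb3l4 and Pvalb have more than 1 window each, so the 11 windows do not stand for separate genes. These shares are a description only. CpG counts ran from 1 in the window of Klk1 to 25 in the downstream window of Pvalb. No motif searched was found in windows of all 6 genes.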

How the data were processed

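The submitters' processing notes name STAR, RSEM and DESeq 1.22.1, and the builds mm9 and mm10, without role or order. The file name holds EBSeq, a tool for comparing groups of RNA libraries. Per the file headers, the deposited table gives a posterior probability (a fraction from 0 to 1) and a log2 fold change for 0 h against 24 h and against 48 h. The headers of the adjusted p-value and the Dox mark name only 24 h or 48 h, and were read as the same comparisons. How the authors normalized the values before they deposited the log2 changes was not given in the sources used here. Each log2 change was multiplied by -1 to read as later over 0 h. RNA integrity numbers in the labels ran from 9.1 to 10. The depth of the libraries is unknown.

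No model was fitted, since no library values were at hand. A call needed a posterior probability of at least 0.95 (alternatives of at least 0.99, an adjusted p of at most 0.05, minimum changes of 1.5-fold and 2-fold, and removal of genes with the Dox mark). Counting and distance functions were tested on simulated data. Of 12819 rows, 12707 found a RefSeq gene (GRCm38.p6) through their symbol or a synonym held by a single gene, which gave the gene order. Promoter sequences are from RefSeq, GRCm38.p6. The 6 genes and the lists of relatives were chosen with earlier results of these data known. Named genes are the 6, the 5 largest other falls per time and the 2 most alike genes per member (both without predicted or clone names), the nearest measured gene on each side, up to 4 called and 2 uncalled genes per list, and Cdk12. A gene of the lists that this rule names is not reported here. Rab26, Mfap4, Gatm, Patl2, Gm14430, Th, Slc27a3 and the other called genes within 5 places were named after their values were seen. Python 3.11.15, pandas 2.3.3 and matplotlib 3.10.9 were used.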

Additional observations from a re-analysis of the deposited data

How the results depend on the processing

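The count of the 6 genes called as fallen in the authors' deposited table kept within 1.5 times of its value under each alternative. At 24 h it was 5, and 4 at a posterior probability of at least 0.99 or by the adjusted p. At 48 h it was 4, and 5 by the adjusted p. Minimum changes of 1.5-fold and 2-fold and removal of genes with the Dox mark could not move either count. Each of the 6 genes was at least 2.66-fold lower at both times, and none carries the mark. Over the 6 genes, both times and 5 alternatives, 55 of the single calls did not move, 3 were lost and 2 gained. The 55 include all calls under the fold and Dox mark alternatives, which could not move, so they do not measure robustness. Lost were those of Lypd1 at 24 h at 0.99, and at both times by the adjusted p. Gained were those of Pvalb and Creb3l4 at 48 h by the adjusted p. The cause was not tested. Neighbouring pairs with both genes low numbered 3 at 24 h and 2 at 48 h at a minimum of 2 on the log2 scale, and 6 and 22 at a minimum of 1, an alternative chosen after seeing the data. No replicate could be left out. No paired analysis was possible because the table holds no values per library.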
